A study of Mus musculus with 8 samples.

Results

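The glucocorticoid receptor gene Nr3c1, its close relative Nr3c2 and 8 genes that glucocorticoids act through or induce were followed in mouse hearts by bulk RNA sequencing. The 10 genes (Nr3c1, Nr3c2, Fkbp5, Zbtb16, Tsc22d3, Klf9, Klf15, Sgk1, Hsd11b1 and Cebpd) were picked by symbol out of 141239 counted genes, and all 10 were found and passed the filter on low counts. All mice were 2 weeks old, of a strain given as mixed, and carried the Lmna knockout, which removes lamins A and C, proteins of the inner nuclear envelope. Of the 8 libraries, 5 came from Lmna-/-:AAV9 Lmna WT hearts, given wild-type Lmna by the adeno-associated virus AAV9 (replicates 1 to 5, called AAV9-LMNA), and 3 from Lmna-/- hearts with no vector named (replicates 6, 7 and 8, called untreated). Vector promoter, vector dose, sex, litter and hour of collection are not given by the labels. Wild-type hearts and hearts with an empty vector were not analysed here, and what lamin and what virus contributed cannot be told apart.

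Glucocorticoids are adrenal steroids that bind the receptor encoded by Nr3c1, which waits in the cytoplasm on a chaperone complex and, once bound, enters the nucleus and switches genes on or off at short palindromic DNA elements. Some of its targets feed back on it: Fkbp5 encodes a co-chaperone that lowers the receptor's affinity for hormone. In heart muscle the receptor supports maturation around birth, and the mineralocorticoid receptor Nr3c2 can bind the same hormone.

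The classical receptor element is a pair of AGAACA arms facing each other, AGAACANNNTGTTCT. RefSeq promoter windows of GRCm38.p6, from 250 bases before to 50 after a start site, were at hand for 7 of the 10 genes, 14 windows in all. The full element occurred in 1 of them, an Sgk1 window, and in 3 of 32851 windows of all genes (0.00913%). On the plus strand of chr10:21993640-21993939 it lay at chr10:21993701-21993715, from 189 bases before that start. A single AGAACA arm on either strand was present in 4 of the 14 windows, 3 of Sgk1 and 1 of Tsc22d3, and in 19.0% of all windows. The looser core ACANNNTGT was present in 2 of the 14, both of Sgk1, and in 6.85% of all windows. The full element contains both shorter motifs. These windows are shown because they span the range seen, from the full palindrome over a lone arm (Tsc22d3, minus strand of chrX:140600473-140600772) to no match (Fkbp5, minus strand of chr17:28486100-28486399); capitals mark every match.
Sgk1: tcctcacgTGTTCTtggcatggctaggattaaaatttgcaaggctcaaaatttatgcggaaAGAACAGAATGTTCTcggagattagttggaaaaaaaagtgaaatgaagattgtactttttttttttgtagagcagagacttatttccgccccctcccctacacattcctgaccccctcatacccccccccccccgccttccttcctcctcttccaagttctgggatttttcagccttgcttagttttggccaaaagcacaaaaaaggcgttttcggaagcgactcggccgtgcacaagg
Tsc22d3: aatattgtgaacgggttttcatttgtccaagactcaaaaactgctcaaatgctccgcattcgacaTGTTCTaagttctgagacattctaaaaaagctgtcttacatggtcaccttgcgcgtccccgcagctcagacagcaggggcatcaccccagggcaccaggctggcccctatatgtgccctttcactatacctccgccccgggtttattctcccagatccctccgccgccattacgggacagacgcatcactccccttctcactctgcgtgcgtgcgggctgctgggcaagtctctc
Fkbp5: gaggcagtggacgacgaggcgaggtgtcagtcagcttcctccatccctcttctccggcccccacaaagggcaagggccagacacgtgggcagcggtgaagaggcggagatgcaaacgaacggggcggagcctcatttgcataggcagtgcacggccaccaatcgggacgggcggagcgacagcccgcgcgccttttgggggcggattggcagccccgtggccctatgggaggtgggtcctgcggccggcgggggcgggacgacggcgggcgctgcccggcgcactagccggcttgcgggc
A match here is a run of letters and not a bound site, and elements farther from a start were not searched.

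Counts on genes ran from 21439956 to 26492443 per library. Levels are in CPM, the read count of a gene scaled to the size of its library. Lmna, counted over the whole gene because the deleted stretch is not given, held 227 to 747 CPM in AAV9-LMNA hearts, against 32.3 to 68.7 CPM in untreated hearts. Muscle markers were abundant throughout, with a summed level of 7 cardiomyocyte genes of 54000 to 65500 CPM in AAV9-LMNA hearts and 44200 to 68900 CPM in untreated hearts. The share of reads outside annotated features moved with the groups. It was 12.05 to 12.85% in AAV9-LMNA hearts, against 24.69, 16.75 and 18.37% in untreated replicates 6, 7 and 8 (exact permutation p = 0.0179, the smallest that 56 splits allow). Whether this is a matter of library quality was not tested. The share of counts on NONCODE genes was likewise 2.162 ± 0.0765% (SD, n = 5) in AAV9-LMNA hearts and 3.382 ± 0.642% (SD, n = 3) in untreated hearts (exact permutation p = 0.0179). The part of these differences in the results was not tested. Untreated replicate 6 stood farthest out, with a summed level of 7 macrophage genes of 112 CPM, against 511 and 210 CPM in untreated replicates 7 and 8 and 419 to 490 CPM in AAV9-LMNA hearts. Untreated replicate 8 held atrial transcripts: 7 atrial genes summed to 1090 CPM there, and to 111 to 244 CPM in the other 7 libraries.

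Zbtb16, a zinc finger repressor, and Fkbp5, the receptor's feedback co-chaperone, fell in AAV9-LMNA hearts. None of the other 8 genes passed the test (edgeR quasi-likelihood, Benjamini-Hochberg adjusted p under 0.05 over 26717 features). The count was 2 lower and 0 higher of 10, where 25.7% of all features were called, 10.6% higher and 15% lower, and 24.5% of protein-coding genes, 18.4% higher and 6.07% lower. In either direction together, the members' share was near the background. At an unadjusted p under 0.05, 4 members were lower (with Klf15 and Cebpd) and 0 higher, where 40.6% of all features passed, 22.6% lower. DESeq2 called 3 lower and 0 higher, where it called 30.5% of all features, 15.9% lower. In either direction together, these counts are at the background too. Zbtb16 and Fkbp5 were also the 2 genes whose group ranges did not overlap, against 29.9% of all features and 29.7% of protein-coding genes. The median log2 fold change of the 10 was -0.20, against -0.03 for all features and 0.21 for protein-coding genes. In bulk RNA, fewer cells of a type and less RNA per cell cannot be told apart.

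**Figure D1:**
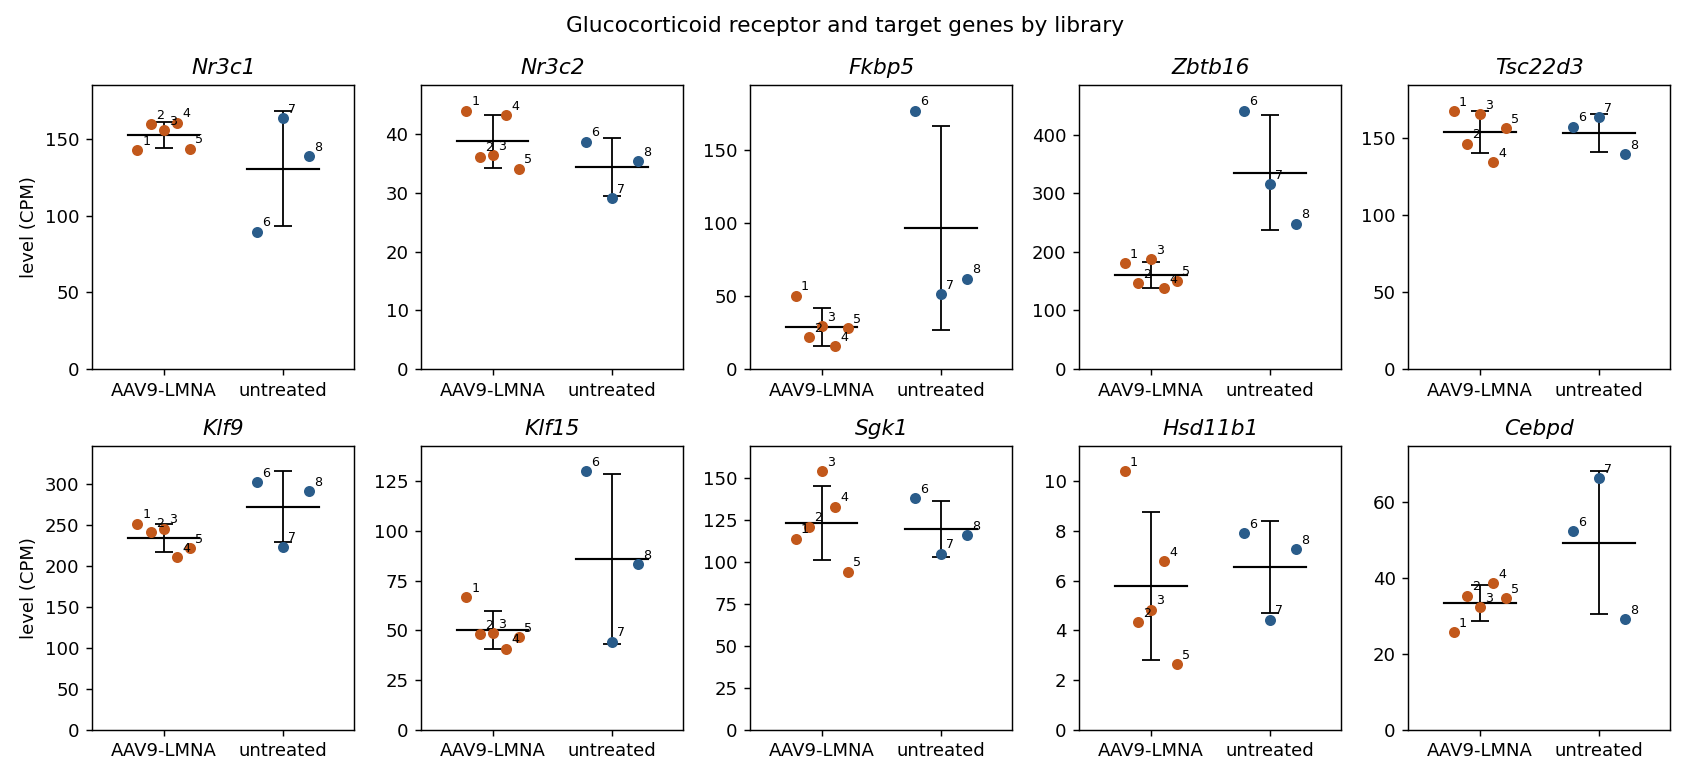
Level of each of the 10 genes in CPM (vertical axes, from 0) in 5 AAV9-LMNA and 3 untreated hearts; points are libraries numbered by replicate, horizontal lines are means and error bars the SD. Zbtb16 is separated between the groups, Fkbp5 barely so, and untreated replicate 6 is highest for Fkbp5, Zbtb16, Klf9 and Klf15 and lowest for Nr3c1.

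The receptor transcripts did not pass the test. Nr3c1 (ENSMUSG00000024431, GRCm38 chromosome 18, 39410545 to 39519421, minus strand) held 143, 160, 156, 161 and 144 CPM in AAV9-LMNA replicates 1 to 5, against 89.7, 164 and 139 CPM in untreated replicates 6, 7 and 8. The AAV9-LMNA hearts lay close together and inside the untreated range, which replicate 6 stretched downward. AAV9-LMNA over untreated gave 0.22 on the log2 scale (standard error, SE, 0.16, edgeR adjusted p = 0.304), and without untreated replicate 7 it was 0.43 and called (edgeR adjusted p = 0.0387). Without untreated replicates 6 and 8 it was -0.09. That fit leaves untreated replicate 7 alone and assumes that it varies like the AAV9-LMNA libraries. A call or lost call there does not measure the spread of untreated hearts.

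Nr3c2, the mineralocorticoid receptor (ENSMUSG00000031618, chromosome 8, 76899442 to 77245012, plus strand), held 44.0, 36.2, 36.4, 43.2 and 34.1 CPM in AAV9-LMNA replicates 1 to 5, against 38.7, 29.1 and 35.4 CPM in untreated replicates 6, 7 and 8. The ranges overlapped, and its log2 fold change came to 0.17 (SE 0.13, edgeR adjusted p = 0.322), and 0.43 against untreated replicate 7 alone. Per kilobase of the longest transcript, Nr3c1 stood above Nr3c2 in both groups, 23.7 ± 1.37 (SD, n = 5) against 6.56 ± 0.761 in AAV9-LMNA hearts and 20.3 ± 5.85 (SD, n = 3) against 5.81 ± 0.823 in untreated hearts. The ratio of Nr3c1 to Nr3c2 counts within a library, which no scaling between libraries touches, ran from 3.25 to 4.41 in AAV9-LMNA hearts and was 2.32, 5.62 and 3.92 in untreated replicates 6, 7 and 8. The mean log2 ratio differed by 0.09, less than the libraries' own spread (two-sided exact permutation test, p = 0.75). Both extremes of that ratio were untreated hearts, and without untreated replicate 6 the difference turned to -0.25 (exact permutation p = 0.286).

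Hsd11b1, the enzyme that regenerates active hormone from its inert form inside cells (ENSMUSG00000016194, chromosome 1, 193221634 to 193264075, minus strand), was the lowest of the 10 per kilobase. It held 10.4, 4.32, 4.84, 6.78 and 2.63 CPM in AAV9-LMNA replicates 1 to 5, against 7.92, 4.43 and 7.26 CPM in untreated replicates 6, 7 and 8. These rest on 58 to 223 reads per library, and the AAV9-LMNA hearts alone spanned the whole range of the 8 libraries. On the log2 scale the difference was -0.17 (SE 0.38, edgeR adjusted p = 0.751), and 0.40 against untreated replicate 7 alone. H6pd supplies the cofactor of this enzyme, and the ratio of Hsd11b1 to H6pd counts did not differ beyond the spread (difference in mean log2 ratio -0.32, exact permutation p = 0.464). Hsd11b2, which inactivates the hormone, was near the limit of counting at 0.541 ± 0.194 CPM (SD, n = 5) in AAV9-LMNA hearts and 0.648 ± 0.108 CPM (SD, n = 3) in untreated hearts.

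Zbtb16 fell, and it was called in the main fit and all 16 alternatives. Zbtb16 encodes a zinc finger transcription factor, also called PLZF, that is strongly induced by glucocorticoids in many tissues (ENSMUSG00000066687, chromosome 9, 48654297 to 48836222, minus strand). It held 181, 146, 187, 138 and 151 CPM in AAV9-LMNA replicates 1 to 5, against 441, 316 and 248 CPM in untreated replicates 6, 7 and 8. The highest AAV9-LMNA heart was below the lowest untreated heart. The mean was 161 ± 22.1 CPM (SD, n = 5) in AAV9-LMNA hearts and 335 ± 97.7 CPM (SD, n = 3) in untreated hearts, a log2 fold change of -1.06 (SE 0.17, edgeR adjusted p = 0.00381). Without untreated replicate 6 it was -0.80 (edgeR adjusted p = 0.0046), and against untreated replicate 7 alone -0.96. Per kilobase of the longest transcript, Zbtb16 had rank 4 of the 10 genes in AAV9-LMNA hearts (31.4 ± 4.32, SD, n = 5). In untreated hearts it had rank 1 (65.5 ± 19.1, SD, n = 3). Zbtb16 also marks some innate-like lymphocytes, and the summed level of 7 lymphocyte genes was 3.67 to 9.69 CPM in AAV9-LMNA hearts and 1.39 to 5.32 CPM in untreated hearts, low in both; 1 of the 5 tested was called, higher.

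Fkbp5 fell too, by a larger fold and with far less agreement among hearts. Fkbp5 (ENSMUSG00000024222, chromosome 17, 28399094 to 28517527, minus strand) held 50.1, 21.7, 29.2, 15.4 and 28 CPM in AAV9-LMNA replicates 1 to 5, against 177, 51.2 and 61.8 CPM in untreated replicates 6, 7 and 8. The groups were separated by a narrow margin between AAV9-LMNA replicate 1 and untreated replicate 7, while untreated replicate 6 lay far above all others. The mean was 28.9 ± 13.1 CPM (SD, n = 5) in AAV9-LMNA hearts and 96.8 ± 69.9 CPM (SD, n = 3) in untreated hearts, a log2 fold change of -1.74 (SE 0.49, edgeR adjusted p = 0.0361). Without untreated replicate 6 the log2 fold change was -0.96 and no longer called (edgeR adjusted p = 0.181), and against untreated replicate 7 alone -0.81. Leaving out AAV9-LMNA replicate 2, 3, 4 or 5 also ended the call, with edgeR adjusted p of 0.0755, 0.0693, 0.0555 and 0.0624, at log2 fold changes of -1.60 to -1.76.

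Fkbp4, the paralog that takes the place of the Fkbp5 protein on the receptor and couples it to transport into the nucleus, went the other way. It held 283, 345, 376, 364 and 351 CPM in AAV9-LMNA replicates 1 to 5, against 136, 247 and 191 CPM in untreated replicates 6, 7 and 8, with no overlap. Its log2 fold change came to 0.84 (SE 0.17, edgeR adjusted p = 0.00807), and 0.61 after correction for transcript length and GC content (edgeR adjusted p = 0.0313). Against untreated replicate 7 alone it was 0.49. The ratio of Fkbp4 to Fkbp5 counts was 5.66, 15.9, 12.9, 23.6 and 12.5 in AAV9-LMNA replicates 1 to 5, against 0.767, 4.82 and 3.09 in untreated replicates 6, 7 and 8. The ratio was higher in every AAV9-LMNA heart than in any untreated heart, and only in untreated replicate 6 did Fkbp5 counts exceed those of Fkbp4. The mean log2 ratio was 3.68 ± 0.75 (SD, n = 5) in AAV9-LMNA hearts and 1.17 ± 1.38 (SD, n = 3) in untreated hearts. The means differed by 2.5, and by 1.73 without untreated replicate 6. The ratio was chosen after both genes' values were seen, and as each gene separated the groups in opposite directions, the ratio had to separate them, so it is a description and carries no test.

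**Figure D2:**
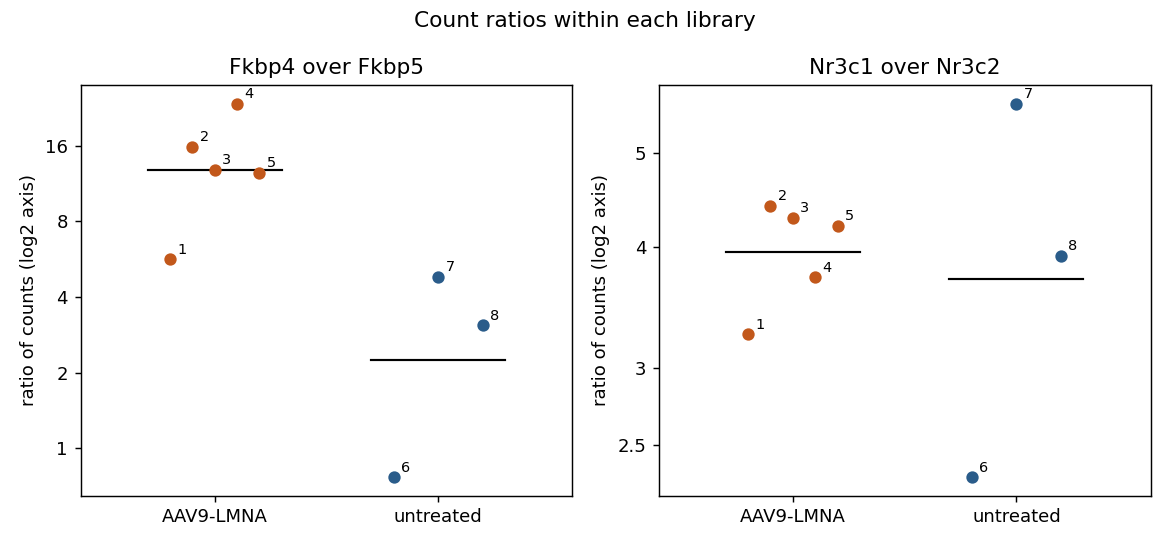
Ratio of read counts within each library (vertical axes, log2 scale, not corrected for length) for Fkbp4 over Fkbp5 and Nr3c1 over Nr3c2, in 5 AAV9-LMNA and 3 untreated hearts; points are libraries numbered by replicate and lines are geometric means. The Fkbp4 to Fkbp5 ratio is 5.66 to 23.6 in AAV9-LMNA hearts and 0.767 to 4.82 in untreated hearts, and the receptor ratio overlaps.

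The Krüppel-like factors Klf9 and Klf15, transcription factors that glucocorticoids induce directly, did not pass the test. Klf15, a regulator of amino acid and lipid use in heart muscle (ENSMUSG00000030087, chromosome 6, 90462576 to 90475238, plus strand), held 66.6, 48.2, 48.7, 40.7 and 46.5 CPM in AAV9-LMNA replicates 1 to 5, against 130, 44.3 and 83.3 CPM in untreated replicates 6, 7 and 8. Untreated replicates 6 and 8 were above every AAV9-LMNA heart, and untreated replicate 7 was among them. AAV9-LMNA over untreated gave -0.78 on the log2 scale (SE 0.30, edgeR adjusted p = 0.0828). It was called by DESeq2 (-0.75, adjusted p = 0.0392) and without untreated replicate 7 (-1.08, edgeR adjusted p = 0.00416), and was 0.19 against untreated replicate 7 alone.

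Klf9 (ENSMUSG00000033863, chromosome 19, 23141226 to 23168134, plus strand) held 251, 241, 245, 210 and 221 CPM in AAV9-LMNA replicates 1 to 5, against 302, 223 and 291 CPM in untreated replicates 6, 7 and 8. The pattern was that of Klf15 on a smaller scale: untreated replicates 6 and 8 were high and replicate 7 was not. Its log2 fold change came to -0.22 (SE 0.11, edgeR adjusted p = 0.17), and -0.33 without untreated replicate 7 (edgeR adjusted p = 0.0223).

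Cebpd, a leucine zipper factor induced by glucocorticoids and by inflammation (ENSMUSG00000071637, chromosome 16, 15887286 to 15891031, plus strand), had another order among the untreated hearts. It held 25.7, 35.2, 32.3, 38.6 and 34.6 CPM in AAV9-LMNA replicates 1 to 5, against 52.3, 66.2 and 29.1 CPM in untreated replicates 6, 7 and 8. Here replicate 7 was highest and replicate 8 fell within the AAV9-LMNA range. On the log2 scale the difference was -0.56 (SE 0.23, edgeR adjusted p = 0.0892). It was called without untreated replicate 8 (-0.82, edgeR adjusted p = 0.0108) and with no filter on low counts (-0.52, edgeR adjusted p = 0.00159). Against untreated replicate 7 alone it was -0.98. Cebpd shares 562 bases, 15% of its exons, with Spidr on the other strand. Whether counting used strand was not tested, so its level is uncertain.

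Tsc22d3 and Sgk1, among the most widely used reporters of glucocorticoid action, did not pass the test. Tsc22d3, which encodes the leucine zipper protein GILZ, a mediator of anti-inflammatory effects (ENSMUSG00000031431, chromosome X, 140539528 to 140600659, minus strand), held 167, 146, 165, 134 and 156 CPM in AAV9-LMNA replicates 1 to 5, against 157, 163 and 139 CPM in untreated replicates 6, 7 and 8. Untreated replicate 6, which stood far out for Fkbp5, was in the middle of the AAV9-LMNA range. AAV9-LMNA over untreated gave 0.00 on the log2 scale (SE 0.10, edgeR adjusted p = 0.977). Relative to protein-coding genes, whose median was 0.21, that is a lower position, and it was -0.27 after the length and GC correction (edgeR adjusted p = 0.186).

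Sgk1, a kinase that regulates ion channels and transporters and is induced through both receptors (ENSMUSG00000019970, chromosome 10, 21882184 to 21999903, plus strand), is the gene whose window holds the full element printed above. It held 114, 121, 154, 133 and 94.2 CPM in AAV9-LMNA replicates 1 to 5, against 138, 105 and 116 CPM in untreated replicates 6, 7 and 8. The untreated hearts lay inside the AAV9-LMNA range, and its log2 fold change came to 0.04 (SE 0.15, edgeR adjusted p = 0.851).

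**Figure D3:**
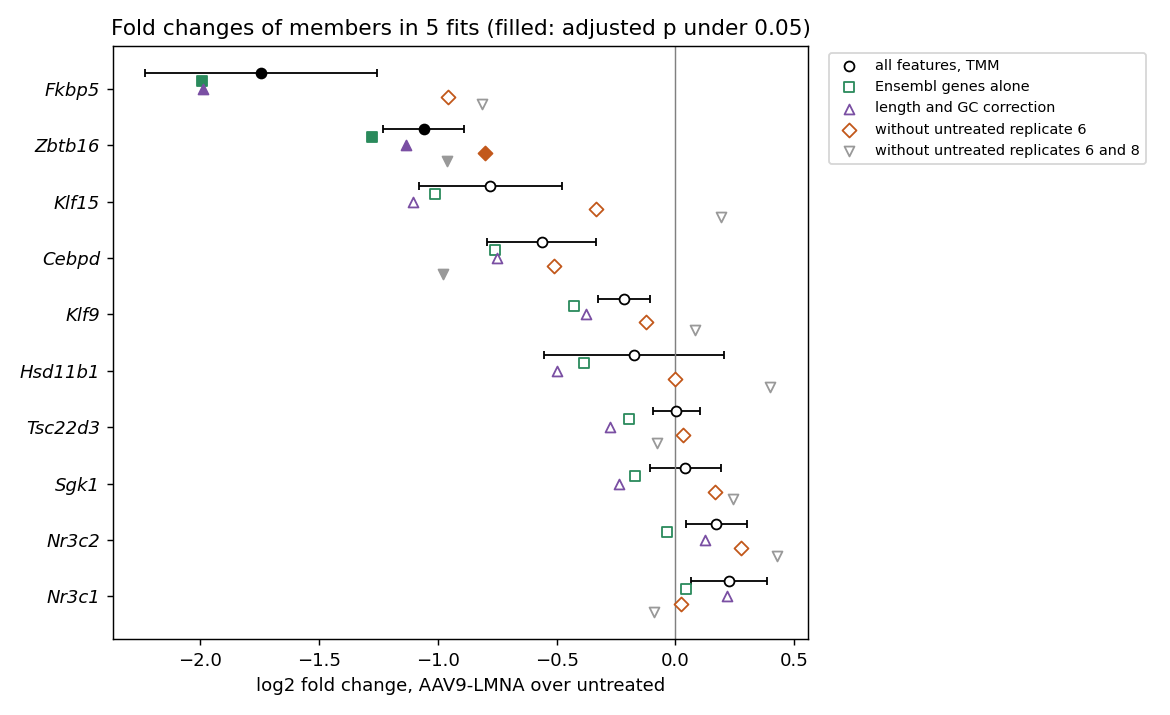
Log2 fold change of AAV9-LMNA over untreated (horizontal axis) for the 10 genes in 5 fits, shown by marker shape; filled markers have an edgeR adjusted p under 0.05 and bars on the circles are standard errors. Zbtb16 is filled in all 5 fits and Fkbp5 in 3. Nr3c1, Klf15, Klf9 and Hsd11b1 cross 0 when untreated replicate 7 is the only untreated heart, and Tsc22d3 moves from 0.00 to -0.08.

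With Ensembl genes scaled and tested alone the median feature shifted by -0.19, and with the length and GC correction by -0.21. Zbtb16 (-1.28 and -1.13) and Fkbp5 (-1.99 and -1.99) were called in both, as the only members. In these fits 1967 of 15256 and 1122 of 15248 Ensembl genes were called, 7.36% with the length and GC correction.

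The spread among hearts was uneven across the 10 genes. Untreated replicate 6 held the highest level of the 8 libraries for 4 genes (Fkbp5, Zbtb16, Klf9 and Klf15) and the lowest for Nr3c1. AAV9-LMNA replicate 4 held the lowest level for 5 (Fkbp5, Zbtb16, Tsc22d3, Klf9 and Klf15), and untreated replicate 8 neither extreme for any. Among markers of non-muscle cells, 0 of 7 macrophage, 0 of 7 fibroblast and 0 of 6 mural genes were called. Called higher were 1 of 6 endothelial and 1 of 5 tested lymphocyte genes. Of protein-coding genes, 24.5% were called in either direction. Untreated hearts spread widely for some markers. The macrophage gene Lyz2 averaged 146 ± 19 CPM (SD, n = 5) in AAV9-LMNA and 72.3 ± 69.5 CPM (SD, n = 3) in untreated hearts, uncalled. A missing call therefore does not show an unchanged cell make-up. In untreated replicate 6 the macrophage, fibroblast and endothelial marker sums were also the lowest of the 8 libraries, 112, 1170 and 837 CPM, and the share of reads outside features the highest; their part in the high Fkbp5, Zbtb16 and Klf15 values there was not tested. Adipocyte markers were at or near 0: 6 genes summed to 0 to 0.227 CPM in AAV9-LMNA hearts and 0.328 to 2.31 CPM in untreated hearts, and Adipoq had no read.

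Per kilobase the order in AAV9-LMNA hearts was Tsc22d3 (53.4 ± 4.78 CPM per kilobase, SD, n = 5), Klf9, Sgk1, Zbtb16, Nr3c1, Klf15, Cebpd, Fkbp5, Nr3c2 and Hsd11b1 (2.93 ± 1.51). Ranges of neighbours did not overlap between Zbtb16 and Nr3c1, between Klf15 and Cebpd, and between Nr3c2 and Hsd11b1; the other neighbours overlapped. Fkbp5 had rank 8 in AAV9-LMNA hearts (7.49 ± 3.39, SD, n = 5) and rank 6 in untreated hearts (25.1 ± 18.1, SD, n = 3). These ranks use the length of the longest transcript. For Fkbp5 that is 3858 bases, while all its annotated exons cover 9468, and for Tsc22d3 it is 2876 against 4341. Ranks by total exon length may differ and were not worked out. The untreated order was Zbtb16, Klf9, Tsc22d3, Sgk1, Klf15, Fkbp5, Nr3c1, Cebpd, Nr3c2 and Hsd11b1, and there the neighbours' ranges were apart between Tsc22d3 and Sgk1, between Cebpd and Nr3c2, and between Nr3c2 and Hsd11b1.

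Among 13705 other named Ensembl genes tested, the pattern over the 8 libraries closest to that of Nr3c1 was found in Chm, App and Hnrnpc, with root mean square differences of 0.047, 0.0582 and 0.0639 in centred log2 CPM (median of all 0.321). For Fkbp5 the closest were Mir490 at 0.17 and Wnk2 and Tns1 at 0.364 each (median of all 1.16).

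Other genes known to be induced by glucocorticoids were called in both directions. Of 28 genes, 26 were tested. Of these, 6 fell, 2 rose and 18 did not pass, where 6.07% of protein-coding genes were called lower and 18.4% higher. The list's median was -0.24 on the log2 scale, and -0.12 against untreated replicate 7 alone. Without untreated replicate 6, 5 fell and 1 rose, where 2207 of 27629 features were called lower and 2020 higher. Per1, a clock gene with a receptor element in its regulatory DNA, held 109, 105, 111, 98.9 and 76.8 CPM in AAV9-LMNA replicates 1 to 5, against 242, 143 and 193 CPM in untreated replicates 6, 7 and 8. The groups did not overlap, and on the log2 scale the difference was -0.94 (SE 0.16, edgeR adjusted p = 0.00462). Against untreated replicate 7 alone it was -0.50.

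Cdkn1a, a cell cycle inhibitor, averaged 23.4 ± 1.75 CPM (SD, n = 5) in AAV9-LMNA hearts and 61.9 ± 21.0 CPM (SD, n = 3) in untreated hearts, a log2 fold change of -1.40 (edgeR adjusted p = 0.00205). Nfkbia, the inhibitor of NF-kappa-B, averaged 68.6 ± 5.02 CPM (SD, n = 5) in AAV9-LMNA hearts and 96.3 ± 15.2 CPM (SD, n = 3) in untreated hearts, a log2 fold change of -0.49 (edgeR adjusted p = 0.0121). Both genes are also induced by signals other than the hormone, p53 in the case of Cdkn1a and NF-kappa-B itself in the case of Nfkbia. Hif3a, a hypoxia-inducible factor gene, held 5.98, 1.97, 1.66, 1.85 and 2.72 CPM in AAV9-LMNA replicates 1 to 5, against 25.4, 6.57 and 15.7 CPM in untreated replicates 6, 7 and 8 (log2 fold change -2.49, edgeR adjusted p = 0.011). As for Klf15, untreated replicates 6 and 8 were the highest of the 8 libraries and AAV9-LMNA replicate 1 the highest of its group. Against untreated replicate 7 alone the log2 fold change of Hif3a was -1.20.

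The 2 genes that rose, named after their values were seen, were Angptl4 (2.17), a lipoprotein lipase inhibitor, and the phosphatase gene Dusp1. Dusp1 averaged 144 ± 8.88 CPM (SD, n = 5) in AAV9-LMNA hearts and 71.5 ± 32.6 CPM (SD, n = 3) in untreated hearts, a log2 fold change of 1.01 (edgeR adjusted p = 0.0159). It is an immediate early gene as well as a receptor target. Errfi1 (-0.20), an inhibitor of the EGF receptor, was not called.

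**Figure D4:**
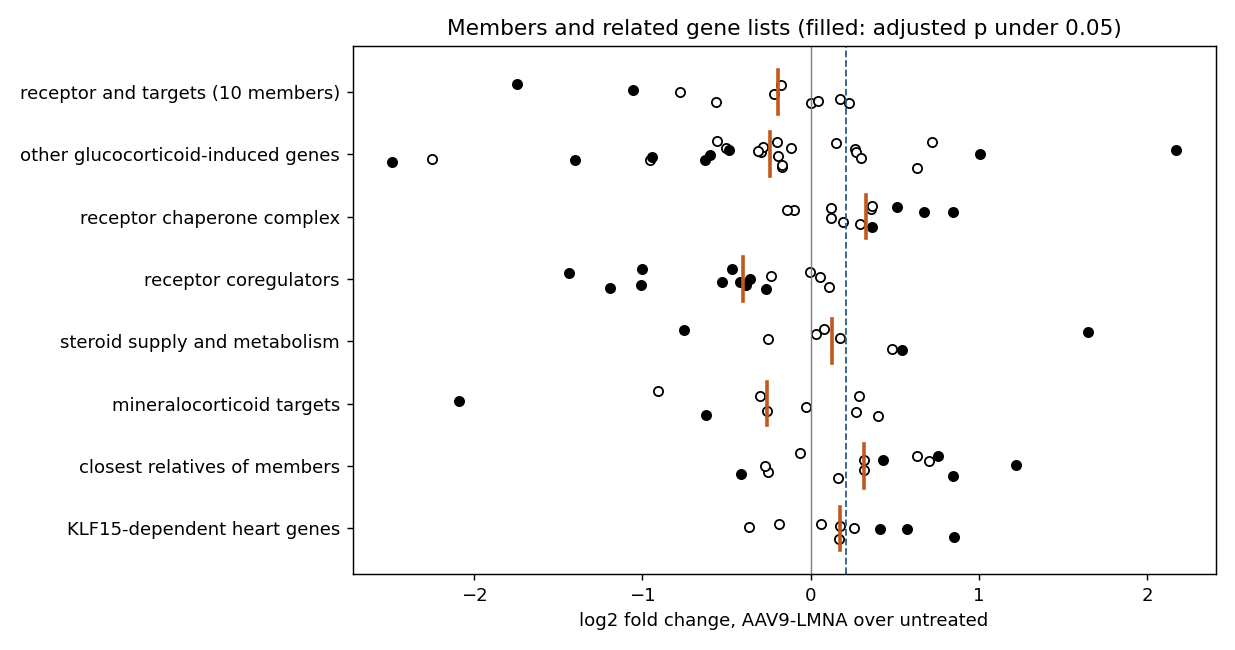
Log2 fold change of AAV9-LMNA over untreated (horizontal axis) for the 10 genes and the tested members of 7 related lists (rows); each point is a gene, filled where the edgeR adjusted p is under 0.05, orange lines are list medians and the dashed line is the median of protein-coding genes, 0.21. Coregulators lie mostly left of 0 (10 of 14 called lower) and chaperones mostly right (4 of 12 called higher). Of protein-coding genes, 6.07% were called lower and 18.4% higher.

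Chaperones that hold the receptor ready were called in 1 direction. Of 12 genes, 4 rose, 0 fell and 8 did not pass, where 18.4% of protein-coding genes were called higher and 6.07% lower. The list's median was 0.33, against 0.21 for protein-coding genes. Besides Fkbp4, Ppid, another immunophilin of that complex, averaged 30.6 ± 1.98 CPM (SD, n = 5) in AAV9-LMNA hearts and 19.2 ± 2.13 CPM (SD, n = 3) in untreated hearts, a log2 fold change of 0.67 (edgeR adjusted p = 0.00389). Bag1 (0.36) and Dnajb1 (0.51), co-chaperones of the heat shock protein Hspa8, rose as well, but lost their calls in 8 and 10 of the alternatives. Hsp90ab1, the abundant chaperone at the centre of the complex, held 944, 937, 959, 933 and 1000 CPM in AAV9-LMNA replicates 1 to 5, against 920, 1260 and 889 CPM in untreated replicates 6, 7 and 8, and was not called (log2 fold change -0.10, edgeR adjusted p = 0.543). With Ensembl genes alone and after the length and GC correction 2 rose, Fkbp4 and Ppid, and the medians were 0.14 and 0.05. In the first of these fits 660 of 15256 genes were called higher, and in the second 2.93% of protein-coding genes. Single libraries moved the count: 8 rose without untreated replicate 7, and 2 without untreated replicate 6 or 8 or AAV9-LMNA replicate 2, 3 or 4. The background moved too. Without untreated replicate 7, 4773 of 28153 features were called higher, against 2020 of 27629 without replicate 6 and 2106 of 28005 without replicate 8. Without AAV9-LMNA replicates 2, 3 and 4 in turn, 1602 of 26370, 1528 of 26492 and 1798 of 26343 were. Against untreated replicate 7 alone the list's median was 0.

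Coregulators that the bound receptor recruits fell in the majority. Of 14 genes, 10 fell, 0 rose and 4 did not pass, where 6.07% of protein-coding genes were called lower and 18.4% higher. The list's median was -0.40. Crebbp, a coactivator with acetyltransferase activity, held 119, 93.7, 98.3, 104 and 98.1 CPM in AAV9-LMNA replicates 1 to 5, against 230, 176 and 211 CPM in untreated replicates 6, 7 and 8. The groups were well apart, and AAV9-LMNA over untreated gave -1.01 on the log2 scale (SE 0.11, edgeR adjusted p = 0.000661). The coactivator genes Ep300 (-1.0) and Ppargc1a (-1.20) fell too. Corepressor genes of the list were also called lower, among them Ncor1 (-0.27, edgeR adjusted p = 0.0398) and Nrip1 (-0.38, edgeR adjusted p = 0.0174). After the length and GC correction 8 of the 14 were called lower, where 4.43% of protein-coding genes were. Against untreated replicate 7 alone the list's median was -0.41, and Ppargc1a was -1.30. Ep300 shares 0.4% of its exon bases with another annotated gene.

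Genes of steroid supply and metabolism were called both ways. Of 12, 8 were tested, 2 rose, 1 fell and 5 did not pass, where 18.4% of protein-coding genes were called higher and 6.07% lower. Abcb1a, an efflux pump that exports glucocorticoids, averaged 49.4 ± 4.68 CPM (SD, n = 5) in AAV9-LMNA hearts and 33.9 ± 7.03 CPM (SD, n = 3) in untreated hearts, a log2 fold change of 0.54 (edgeR adjusted p = 0.0195). Akr1c14, a hydroxysteroid dehydrogenase, rose by 1.65, and Hsd17b11 had a log2 fold change of -0.75 (edgeR adjusted p = 0.00803). Both rises were lost with Ensembl genes alone and after the length and GC correction, and without AAV9-LMNA replicate 2 or 3. That of Akr1c14 was also lost without AAV9-LMNA replicate 4 and without untreated replicate 6 or 7, and Abcb1a was 0.94 against untreated replicate 7 alone. The adrenal synthesis gene Cyp11b1 had 0 reads in each library.

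Of 10 mineralocorticoid targets, 9 were tested and 2 fell, Scnn1a and Usp2, while 0 rose. Of protein-coding genes, 6.07% were called lower and 18.4% higher. Without untreated replicate 7, 3 of these targets fell and 2 rose, where 5260 of 28153 features were called lower and 4773 higher. Scnn1a, a sodium channel subunit, held 0.794, 0.568, 0.427, 0.429 and 0.679 CPM in AAV9-LMNA replicates 1 to 5, against 2.13, 0.810 and 4.54 CPM in untreated replicates 6, 7 and 8. All levels were low, and untreated replicate 8, the library with atrial transcripts, was highest. The log2 fold change of -2.09 (edgeR adjusted p = 0.0111) became -1.33 without untreated replicate 8, and the call was lost (edgeR adjusted p = 0.0506). Against untreated replicate 7 alone it was -0.47. Usp2, a deubiquitinase, had a log2 fold change of -0.62 (edgeR adjusted p = 0.0161) and -0.36 without untreated replicate 6 (edgeR adjusted p = 0.0428), and shares 8.3% of its exon bases with other annotated genes.

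Close relatives of the 10 genes were called in both directions. Of 16, 13 were tested. Of these, 4 rose (Fkbp4 among them), 1 fell and 8 did not pass, where 18.4% of protein-coding genes were called higher and 6.07% lower. Tsc22d4, a paralog of Tsc22d3, averaged 262 ± 20.5 CPM (SD, n = 5) in AAV9-LMNA hearts and 194 ± 12.4 CPM (SD, n = 3) in untreated hearts, a log2 fold change of 0.43 (edgeR adjusted p = 0.0109). Tsc22d1 rose by 0.76 (edgeR adjusted p = 0.0164), and Klf10, a factor induced by TGF-beta, by 1.22 (edgeR adjusted p = 0.0243). Klf13, the nearest relative of Klf9, fell by 0.42 on the log2 scale (edgeR adjusted p = 0.0249). The calls were lost for Tsc22d4 with Ensembl genes alone, for Tsc22d1 without untreated replicate 8 (0.74, edgeR adjusted p = 0.0506) and for Klf10 without untreated replicate 6 (1.03, edgeR adjusted p = 0.119) or 7. Whether paralogs differed was not tested.

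Among genes known to depend on KLF15 in the heart, Gpt2, Acadm and Bckdha rose. Of 10, 9 were tested. Of these, 3 rose, 0 fell and 6 did not pass, where 18.4% of protein-coding genes were called higher and 6.07% lower. The list's median was 0.18, against 0.21 for protein-coding genes. Gpt2, an alanine aminotransferase, held 68.7, 70.4, 88.6, 70.4 and 81.9 CPM in AAV9-LMNA replicates 1 to 5, against 39.1, 44.0 and 43.1 CPM in untreated replicates 6, 7 and 8 (log2 fold change 0.85, edgeR adjusted p = 0.00165). Prodh, a proline dehydrogenase, was highest at 119 CPM in untreated replicate 6 and lowest at 25.0 CPM in untreated replicate 7, and was not called (-0.37, edgeR adjusted p = 0.534). Acadm rose by 0.57 and Bckdha by 0.41; 61.7% of the exon bases of Bckdha are shared with another annotated gene, so its count is uncertain. After the length and GC correction 1 of the 9 rose, where 2.93% of protein-coding genes were called higher. Without untreated replicate 6, 6 of the 9 rose, where 2020 of 27629 features were called higher. Against untreated replicate 7 alone the list's median was 0.59. Bckdha lost its call in 10 of the alternatives.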

How the data were processed

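Heart RNA (miRNeasy Mini kit, Qiagen) went into Illumina TruSeq libraries, per the labels' protocols. The deposited values are raw read counts per gene, whole numbers, 1 table per library. They cover 53465 Ensembl and 87774 NONCODE genes. The deposited counts do not record whether strand was used in counting. The submitters' processing notes list the tools TopHat2, HTSeq, limma and edgeR and the builds GRCm38 and mm10; versions and roles are not stated there. Summary lines entered neither the library sizes nor any test. Of reads on features, outside them or ambiguous, 12.05 to 12.85% lay outside in AAV9-LMNA and 16.75 to 24.69% in untreated libraries, and 21.03 to 26.37% were ambiguous; neither kind counts for a gene.

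Symbols, positions and transcript lengths came from GENCODE M21 on GRCm38, and promoters from RefSeq on GRCm38.p6. The test was edgeR 4.0.16 (R 4.3.3): filterByExpr (26717 features left), TMM over the whole table, a robust quasi-likelihood fit on group, and Benjamini-Hochberg adjustment across every tested feature, with 0.05 as threshold. Standard errors were derived from the fold change and its F statistic. Fold changes are AAV9-LMNA over untreated. Alternatives were DESeq2 1.42.0, limma-voom (limma 3.58.1), RLE in place of TMM, no filter, at least 1 CPM in 3 libraries, Ensembl genes alone, a loess correction (span 0.5) for transcript length and GC content, and libraries left out. The fitting script was tested on simulated counts. It recovered 2.99% of 67 changes of 1.5-fold, 28.4% of 67 of 2-fold and 75.8% of 66 of 4-fold. A gene that did not pass may therefore still have changed. The simulation gave 76 calls, against 6858 in the data, so these shares do not carry over directly. Single values were compared with exact permutation tests over libraries. The members and lists were chosen with earlier results of these data known. From each related list, up to 4 called genes with the smallest adjusted p were named; other genes named were chosen after their values were seen. 1 gene that this rule picks is not reported here. The labels do not say that each library is another animal; p-values therefore reflect library-to-library spread, which may be technical.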

Additional observations from a re-analysis of the deposited data

Results flagged for a closer look

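Among 33 genes named by rule, members included, 7 had an AAV9-LMNA library far from the other 4, and in all 7 it was replicate 1. For independent values, about 1 in 20 such groups is given by chance. These genes share the same libraries, and those beyond the members were picked by their adjusted p, so the count carries no test. AAV9-LMNA replicate 1 held 20.3 CPM of Cdkn1a (next lowest 24.0), 5.98 CPM of Hif3a (next highest 2.72), 61.3 CPM of Ep300 (next highest 56.3), 165 CPM of Ppargc1a (next highest 108), 177 CPM of Tsc22d1 (next lowest 231), 134 CPM of Klf10 (next highest 74.8) and 103 CPM of Bckdha (next highest 83.7). None of the 10 receptor and target genes was among them. Replicate 1 was still the highest AAV9-LMNA library for Nr3c2, Fkbp5, Tsc22d3, Klf9, Klf15 and Hsd11b1, and the lowest for Nr3c1 and Cebpd.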

How the results depend on the processing

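The count of members called, 2, was 1 to 5 with single libraries left out: 1 without AAV9-LMNA replicate 2, 3, 4 or 5 or untreated replicate 6, 5 without untreated replicate 7 (4 lower and 1 higher), and 3 without untreated replicate 8 and with DESeq2. Counts called lower ranged from 1 to 4 and called higher from 0 to 1. The background moved as well. Without untreated replicate 7, 10033 of 28153 features were called (5260 lower, 4773 higher). Without untreated replicate 6 it was 4227 of 27629 (2207 lower, 2020 higher), and without untreated replicate 8 it was 5143 of 28005. Without AAV9-LMNA replicates 2, 3, 4 and 5 in turn, 4216, 4227, 4816 and 4868 features were called. Zbtb16 was called in all 16 alternatives. Over all features 6858 were called, 1967 with Ensembl features alone, 1122 with the length and GC correction, 2143 without untreated replicates 6 and 8, and 4216 to 10033 with single libraries left out. Without untreated replicates 6 and 8, replicate 7 is alone and assumed to vary like the AAV9-LMNA libraries. For members that turned direction, neither the reported nor the turned value was called. Tsc22d3 turned to -0.19 with Ensembl features alone, -0.27 with the length and GC correction, -0.05 at a minimum of 1 CPM, -0.08 without untreated replicates 6 and 8, and ranged from -0.05 to 0.07 with single libraries left out. Sgk1 turned to -0.17, -0.24 and -0.01 under the first 3 of these, and ranged from -0.06 to 0.17 with single libraries left out. Nr3c2 was -0.03 with Ensembl features alone. Without untreated replicates 6 and 8, Nr3c1 was -0.09, Klf9 0.08, Klf15 0.19 and Hsd11b1 0.40. The log2 ratio of Nr3c1 to Nr3c2 ranged from -0.25 (without untreated replicate 6) to 0.39 (without untreated replicate 7), and that of Fkbp4 to Fkbp5 stayed between 1.73 and 3.05. With no filter the members called were Zbtb16 and Cebpd, and Fkbp5 was not (edgeR adjusted p = 0.13). The alternatives that leave out single libraries for the ratios were chosen after seeing the data. The cause of these changes was not tested. With 3 untreated hearts, 1 library decides several calls; Hsd11b1, at 58 to 223 reads, and Hsd11b2 are also limited by depth. No paired analysis was possible because the groups share no replicate number.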
